A study of Macaca mulatta with 7 samples.

Results

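Intact spinal cord of the rhesus monkey (Macaca mulatta) was compared along its length, in 3 single-nucleus RNA libraries made from the cervical, thoracic and lumbar cord. The nuclei described here were those of the 3 libraries labelled day 0 that held at least 1000 unique molecular identifiers (UMIs, each standing for 1 captured RNA molecule) and more than 500 detected genes. They numbered 9685 cervical, 11582 thoracic and 11408 lumbar nuclei, in all 32675 (48.7%) of the 67087 nuclei that met the same limits in all 7 libraries of the series. The other 4 libraries came from lumbar cord at 7, 14 and 30 days and 6 months after injury and were not compared here.

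All 3 segments were uninjured and untreated cord from animals labelled 5 years old, and by the study's account they were the segments of a single female monkey. The study perfused with saline, removed the meninges and isolated nuclei rather than whole cells, so cytoplasmic RNA was largely left behind. Each segment is 1 library: the segment, its dissection, the proportion of gray and white matter taken and the preparation of the library cannot be told apart, no replicate spread exists, and no p-value is given. Intervals in brackets are exact 95% Poisson or binomial intervals and cover counting error only. Levels are UMIs per 1000000 UMIs of the same class and library (CPM), and a gene was counted as higher or lower in a segment when its CPM, with 1 added, differed at least 2-fold.

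The cord is built alike from end to end but not in equal proportions: the cervical and lumbar enlargements serve the limbs and hold much gray matter, with its neuron cell bodies, while the thoracic cord is richer in ascending and descending white matter tracts relative to its gray matter. The position of a cell along the body axis is set in the embryo by the HOX transcription factors, whose genes lie in clusters and are used in order, low-numbered genes toward the head and high-numbered genes toward the tail. Astrocytes also differ between gray matter, where they take up synaptic glutamate and GABA, and white matter, where fibrous astrocytes are rich in intermediate filament.

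After removal of likely doublets, 9200 cervical, 11002 thoracic and 10838 lumbar nuclei remained, with 115071105, 119711819 and 141727261 UMIs. Their median depth was 6965.5, 6932.5 and 6186.5 UMIs. Near the limit, 44, 65 and 69 nuclei lay between 1000 and 1099 UMIs, and 52, 71 and 79 barcodes lay just under it between 900 and 999. The lumbar library shared 19 barcodes with the cervical one and 32 with the thoracic one, the latter pair shared 29, and none occurred in all 3. Classes were named from marker genes and are called "-like" on that account. In all, 7 sub-clusters whose leading genes belonged to another class, with 599 cervical, 695 thoracic and 273 lumbar nuclei, were kept out of the classes. The neuron-like nuclei numbered 1086, 700 and 2670, and since each holds many UMIs they supplied 39.3%, 21.5% and 61.8% of all UMIs. Oligodendrocyte-like nuclei numbered 4151, 3889 and 3434 and supplied 34.0%, 35.7% and 17.8%.

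Most HOX genes were higher in the lumbar than in the cervical library. Of 24 with at least 100 UMIs in neuron-like nuclei, 23 were higher in lumbar than in cervical ones. Past 2-fold were 5, where 0.11% of all tested genes were, which also had to reach a mean of 10 CPM. None was past 2-fold higher in cervical than in lumbar nuclei. Summed, the genes numbered 1 to 5, toward the head end, also stood highest in lumbar neuron-like nuclei, at 151, 148 and 195 CPM. HOXA9 in neuron-like nuclei stood at 0.708 CPM in the cervical, 18.6 in the thoracic and 29.1 in the lumbar library, a log2 ratio of lumbar over cervical of 4.14. HOXC9 followed the same order, at 1.95, 14.1 and 20.1 CPM, as did HOXC8 at 1.90, 6.80 and 9.57 CPM. The cervical library was the low one for all 3 genes, with the thoracic library nearer the lumbar one. The lumbar over cervical ratio of HOXA9 was above 0 in 14 of 14 neuron-like sub-clusters, with a range of log2 3.47 to 5.72. Together these held 27 cervical and 2203 lumbar HOXA9 UMIs. In most of them the cervical count was 0, so the size of the ratio there rests on the 1 added to CPM. Genes further along the clusters were found mainly in the lumbar library. HOXC10 had 1, 11 and 259 UMIs in neuron-like nuclei, and HOXD10 had 0, 0 and 188. Against a floor of 3 UMIs per library, HOXD10 was at least 32.4-fold higher in lumbar than in cervical and at least 18.4-fold higher than in thoracic neuron-like nuclei. HOXA11, HOXD11 and HOXD9 were likewise at 0 UMIs in cervical and thoracic neuron-like nuclei, against 46, 75 and 72 UMIs in lumbar ones. In neuron-like nuclei HOXD3, toward the head end of its cluster, stood at 119, 108 and 149 CPM and HOXB6, in the middle of its cluster, at 81.6, 95.6 and 94.3 CPM, both under 2-fold. HOXD3 was past 2-fold in lumbar over thoracic cord in the whole libraries, at 75.0, 56.2 and 118 CPM, and in astrocyte-like nuclei, at 38.7, 32.2 and 74.8 CPM. HOXB9, at 10.2, 6.29 and 15.3 CPM in neuron-like nuclei, was likewise lowest in the thoracic library and past 2-fold in lumbar over thoracic nuclei there, unlike HOXA9, HOXC9 and HOXC8, which were lowest in the cervical one.

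The order of HOXA9 was also seen outside neurons, and its lumbar level was at least 2-fold above the cervical one in all 5 major classes, though in oligodendrocyte-like nuclei the gene was too low to be among those tested. HOXA9 stood at 0.771, 23.1 and 37.7 CPM in astrocyte-like nuclei (cervical, thoracic, lumbar), at 1.64, 15.3 and 35.5 in nuclei like oligodendrocyte precursor cells (OPCs), and at 13.4, 98.7 and 104 in ependymal-like nuclei, the ciliated cells that line the central canal. Oligodendrocyte-like nuclei carried little, 0.102, 1.19 and 3.81 CPM, in the same order. Microglia/macrophage-like nuclei, which derive from yolk sac rather than from neural tube, held 2.87, 8.32 and 20.2 CPM. Relative to neuron-like nuclei of the same library, HOXA9 in microglia/macrophage-like nuclei reached 405%, 44.8% and 69.2% of the level, while HOXB6 reached 1.76%, 1.10% and 1.92%, HOXD3 3.49%, 4.07% and 3.64%, and the neuronal synaptic gene SNAP25 2.67%, 1.36% and 4.03%. The neurofilament genes NEFM, at 35.3%, 14.8% and 37.0%, and NEFL, at 44.8%, 27.2% and 48.1%, were nearer to HOXA9 in the thoracic and lumbar libraries, so the ratio was not the same for all genes. The cervical 405% for HOXA9 sets 2.87 CPM against 0.708 CPM in neuron-like nuclei, the latter from 32 UMIs, so both sides are low. The part of RNA from other cells in the microglial HOXA9 was not tested. With each nucleus thinned to 1000 UMIs, HOXA9 was found in 0.205%, 1.09% and 1.71% of microglia/macrophage-like nuclei, against 0%, 0.180% and 0.291% of oligodendrocyte-like nuclei. Unthinned, the same shares were 0.89%, 2.53% and 4.29% at median depths of 4028, 4010.5 and 3226 UMIs, against 0.0964%, 1.23% and 2.48% of oligodendrocyte-like nuclei at 7569, 8624 and 5720 UMIs.

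**Figure D1:**
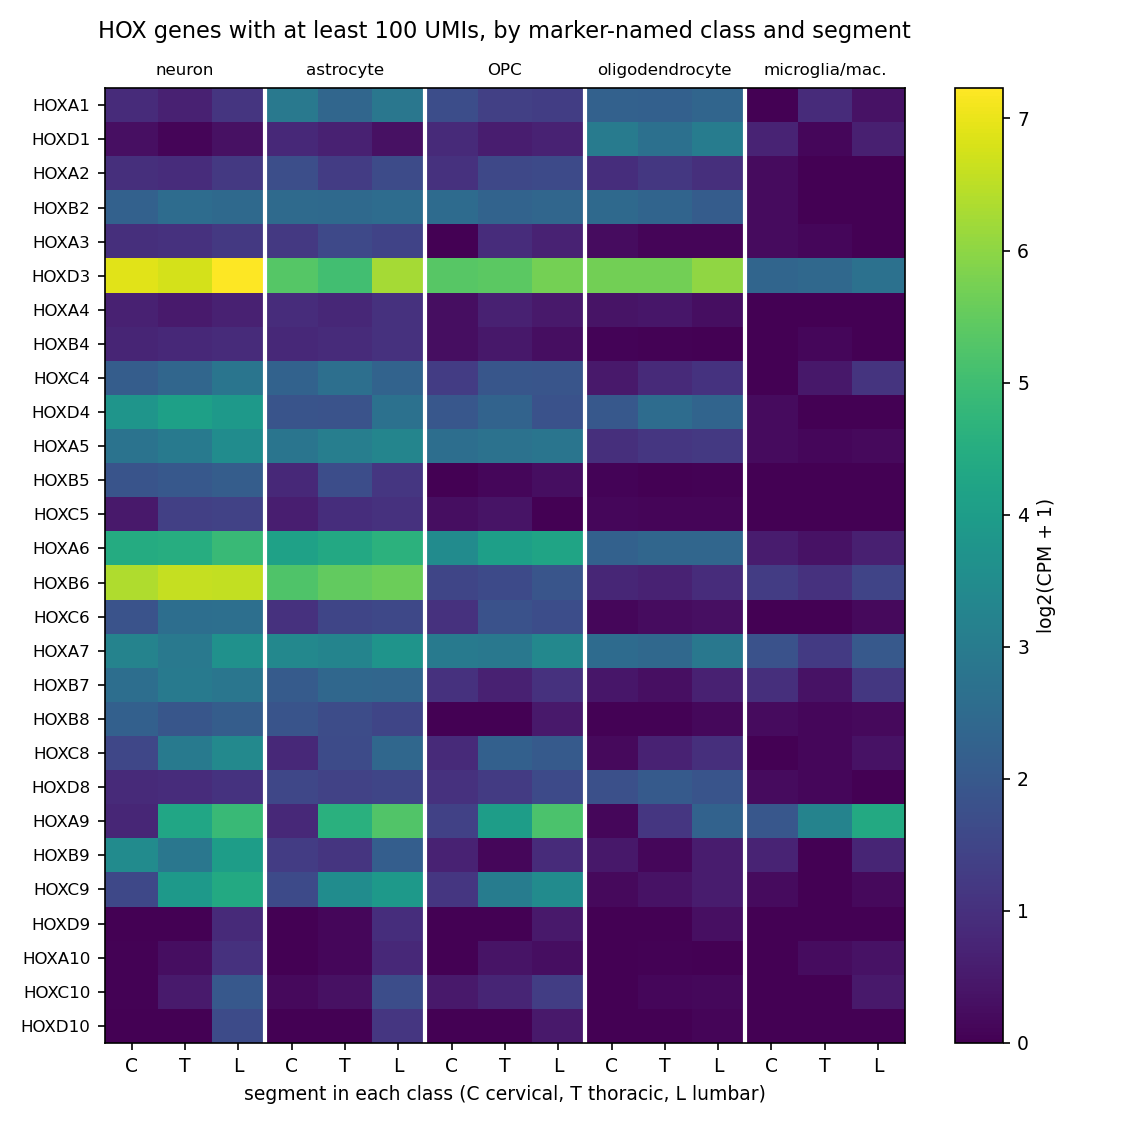
HOX genes with at least 100 UMIs, by class and segment, in CPM with 1 added on a log scale. HOXA9 is lowest in the cervical column of each class (0.708 CPM in neuron-like nuclei, against 18.6 and 29.1 in the thoracic and lumbar columns) and low throughout in oligodendrocyte-like nuclei (at most 3.81 CPM), while HOXC10 and HOXD10 appear in the lumbar column.

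Taking each library whole, the segments that differed most were lumbar and thoracic cord. Of 9582 genes with enough UMIs, 595 (6.21%) were higher in lumbar than in thoracic cord and 274 (2.86%) were lower. Lumbar and cervical cord were much closer, with 13 genes (0.136%) higher in lumbar and 29 (0.303%) lower, and between thoracic and cervical cord 27 (0.282%) were higher in thoracic and 82 (0.856%) lower. In a whole library, fewer cells of a type and less RNA per cell cannot be told apart. The share of higher genes among those past 2-fold rested on the weight of each nucleus: it was 31.0% for lumbar over cervical, 68.5% for lumbar over thoracic and 24.8% for thoracic over cervical, and 98.1%, 93.7% and 39.3% when every nucleus was weighted the same.

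The whole libraries were also compared with what their class shares alone would give. A level was computed for each gene from the class shares of UMIs alone, with each class given the same expression in all 3 segments. Between lumbar and thoracic cord this placed 413 genes past 2-fold, and 363 of them were among the 869 seen, 41.8% of these. Between lumbar and cervical cord it placed only 2 of the 42, and between thoracic and cervical cord none of the 109. With the expected ratio subtracted, 8 of the 42, 13 of the 869 and 12 of the 109 were still past 2-fold. Across genes, the expected and observed log2 ratios correlated at Pearson r of 0.95, 0.92 and 0.84 for lumbar over thoracic, lumbar over cervical and thoracic over cervical, as a description of genes that share libraries. After subtraction of the expected ratio, the SD over genes fell from 0.55 to 0.18, from 0.33 to 0.13 and from 0.31 to 0.17. Of 8 dorsal horn genes tested in the whole libraries, 4 were higher in lumbar than in thoracic cord, and of 4 tested genes of inhibitory identity, a list of enzymes, transporters and a transcription factor of GABA and glycine neurons, all 4 were, against 6.21% of all tested genes. Within neuron-like nuclei none of 9 and none of 4 were, where 0.175% of all tested genes were.

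The genes furthest apart in the whole libraries were of several kinds. AHNAK, which encodes a very large scaffold protein of the membrane cytoskeleton, stood at 6.73 [6.26, 7.22] CPM in cervical, 27.5 [26.5, 28.4] in thoracic and 6.70 [6.28, 7.14] in lumbar cord. WDR49 and the semaphorin SEMA3B, also highest in thoracic cord, stood at 44.8, 132 and 43.6 CPM and at 16.9, 47.5 and 12.8 CPM. Within 3 astrocyte-like sub-clusters their lumbar over thoracic log2 ratios were -1.06 to 0.20 and -0.20 to 0.02. For thoracic over cervical they were 0.16 to 1.96 and 0.27 to 0.35. The neurofilament genes NEFM and NEFL, the medium and light chains of the axonal cytoskeleton, were lowest in thoracic cord, at 55.3, 15.2 and 69.3 CPM and at 33.9, 10.1 and 40.4 CPM. Class shares alone gave a log2 ratio of thoracic over cervical of 0.48 for AHNAK, against 1.88 observed, and of -0.36 for NEFM, against -1.79. SMIM2, a small membrane protein gene of oligodendrocytes, stood at 166, 180 and 74.3 CPM in the whole libraries but at 426, 422 and 391 CPM within oligodendrocyte-like nuclei. CLEC7A, the beta-glucan receptor dectin-1 of myeloid cells, was lowest in lumbar cord at 19.9, 23.8 and 8.04 CPM. Within microglia/macrophage-like nuclei it stood at 297, 236 and 152 CPM. DKK2, a Wnt antagonist, was highest in lumbar cord at 9.54, 8.29 and 21.1 CPM, and 10 nuclei held 29.4%, 44.9% and 15.4% of its UMIs. NR4A3 was lowest in cervical cord, at 5.02, 11.8 and 16.7 CPM, and is described with the microglia. ADORA2B was highest in lumbar cord, at 58.7, 63.1 and 145 CPM, and is described below with the genes that moved in every class.

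Within single classes, fewer genes were past 2-fold between lumbar and thoracic nuclei than in the whole libraries when all UMIs were used. With each nucleus thinned to 1000 UMIs, astrocyte-like nuclei had 517 and the whole libraries 414. Thinning left 1000 UMIs from each of only 854 cervical, 1357 thoracic and 939 lumbar astrocyte-like nuclei. A gene near 10 CPM then rests on few UMIs, and counting error alone can carry it past 2-fold. The thinned counts therefore cannot rank this class against the whole libraries. Astrocyte-like nuclei had the most with nuclei pooled as they came. When sub-clusters were given the same weight in every segment, and those with under 20 nuclei in any segment were left out, they had 35 and microglia/macrophage-like nuclei 53. Between thoracic and cervical nuclei their unweighted count was about that of the whole libraries (111 against 109). They had 8925 genes tested, of which 160 (1.79%) were higher and 162 (1.82%) lower in lumbar than in thoracic cord. The thoracic library differed from the cervical one in the same class by 24 genes higher (0.269%) and 87 lower (0.975%). For lumbar over cervical the counts were 15 (0.168%) and 23 (0.258%). With the sub-cluster led by oligodendrocyte genes and the others led by another class kept in, the counts past 2-fold were 671 in place of 322 for lumbar against thoracic, 409 in place of 111 for thoracic against cervical and 146 in place of 38 for lumbar against cervical nuclei.

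**Figure D2:**
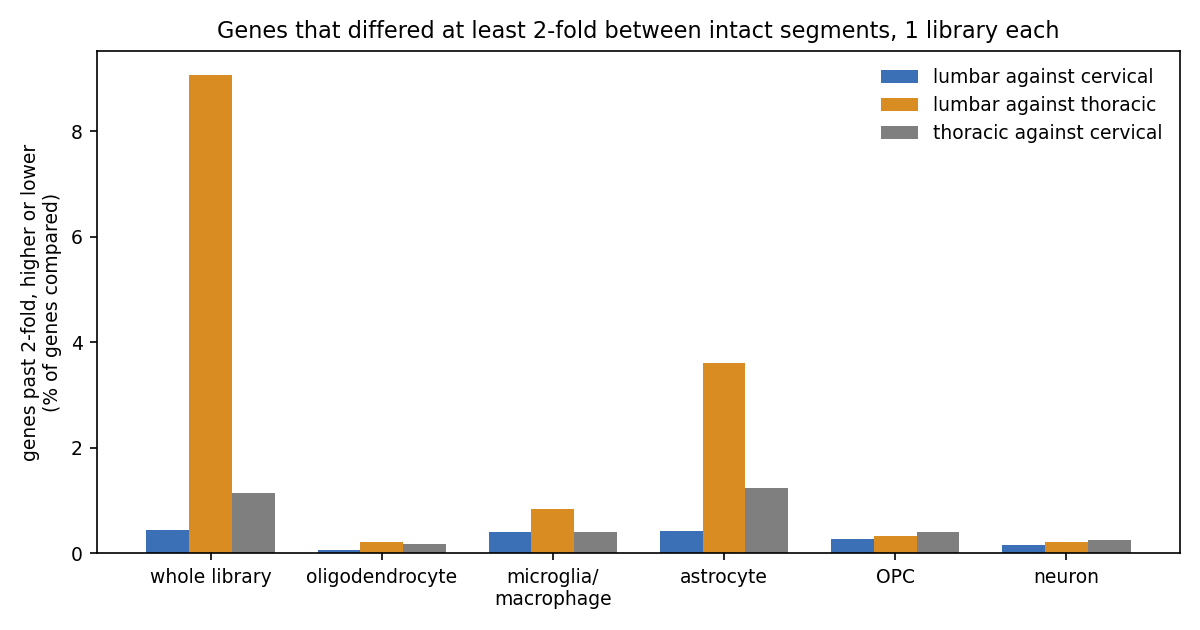
Bars give the percent of tested genes at least 2-fold higher or lower (both directions added) for each pair of segments, in the whole libraries and the 5 major classes. The lumbar against thoracic bars are the tallest for whole libraries (9.07%) and astrocyte-like nuclei (3.61%), and no bar of another class exceeds 0.845%.

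Gray-matter astrocyte genes were lowest in thoracic nuclei. Of 7 such genes tested, 5 were at least 2-fold higher in lumbar than in thoracic astrocyte-like nuclei, where 1.79% of all tested genes were, and their median log2 ratio was 1.34, against -0.12 over all tested genes. SLC1A2, the main astrocytic glutamate transporter, stood at 4194 CPM in cervical, 1899 in thoracic and 5658 in lumbar nuclei. The GABA transporter SLC6A11 stood at 453, 256 and 651 CPM, and SLC7A10, a carrier of small neutral amino acids including serine, at 62.6, 31.7 and 87.5 CPM. GJB6, the gap junction protein connexin 30, stood at 78.0, 34.3 and 92.9 CPM, and ITPRID1 at 581, 255 and 598 CPM. Thoracic nuclei were the low ones for all 5. The potassium channel KCNJ10 (94.0, 76.8 and 109 CPM) stayed under 2-fold. Between thoracic and cervical nuclei, 3 of the 7 were lower, where 0.975% of all tested genes were, with a median of -0.96 against 0.05 over all tested genes, and none was past 2-fold between lumbar and cervical nuclei (median 0.25 against -0.06). With each nucleus thinned to 1000 UMIs, SLC1A2 was found in 63.8% [60.5, 67.0] of cervical, 49.4% [46.8, 52.1] of thoracic and 74.5% [71.6, 77.3] of lumbar astrocyte-like nuclei. The unthinned shares were 89.5%, 82.3% and 90.1%. In microglia/macrophage-like nuclei the thinned shares were 1.92%, 0.842% and 2.29%.

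White-matter astrocyte genes went the opposite way. VCAN, a chondroitin sulfate proteoglycan of the matrix, stood at 391 CPM in cervical, 704 in thoracic and 280 in lumbar nuclei, and the alarmin cytokine IL33 at 231, 367 and 162 CPM. Both were at least 2-fold lower in lumbar than in thoracic nuclei, where 1.82% of all tested genes were. VCAN was also a leading gene of the OPC-like cluster. The intermediate filament gene GFAP (1259, 1601 and 928 CPM) and the hyaluronan receptor CD44 (372, 461 and 272 CPM) had the same order without reaching 2-fold. The median of the 4 genes was -0.98 for lumbar over thoracic, 0.50 for thoracic over cervical and -0.47 for lumbar over cervical.

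Astrocyte-like nuclei fell into sub-clusters that the segments held unequally. Sub-cluster 0, led by ABI3BP, LTBP4, VCAM1 and EPHA6, had 248 cervical, 618 thoracic and 179 lumbar nuclei. Sub-cluster 1, whose leading genes included SLC1A2 and ITPRID1, had 320, 223 and 456. Sub-cluster 2, led by GABRA2 and VWC2, had 261, 423 and 264. When these 3 sub-clusters, which held 2992 nuclei, were given the same weight in each segment and the others were left out, the 322 genes past 2-fold between lumbar and thoracic nuclei became 35, the 111 between thoracic and cervical nuclei became 37, and the 38 between lumbar and cervical nuclei became 24. The share of higher genes between lumbar and thoracic nuclei was 49.7%, and 67.5% when the median of gene ratios set the scale, 61.3% with every nucleus weighted the same and 71.4% with sub-clusters weighted equally. For lumbar over cervical nuclei the share was 39.5%, 51.4% on the median scale and 58.3% with sub-clusters weighted equally. Within the 3 sub-clusters the log2 ratio of lumbar over thoracic for SLC1A2 was 0.29 to 0.58, above 0 in 3 of 3, and for GJB6 0.34 to 0.68, while for ITPRID1 it was -0.23 to 0.46 and above 0 in 1 of 3. GFAP lay between -0.70 and -0.00 and CD44 between -0.56 and 0.20.

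Several other genes of astrocyte-like nuclei kept their direction within the 3 sub-clusters. The ephrin receptor EPHA6 had its highest class level in neuron-like nuclei. In astrocyte-like nuclei it was highest in thoracic ones, at 79.8, 292 and 78.9 CPM. Its log2 ratio of thoracic over cervical was 1.00 to 2.14 within the 3 sub-clusters. AHNAK, at 49.9, 165 and 56.8 CPM, had a log2 ratio of 0.94 to 1.29 within them. For lumbar over thoracic the ranges were -1.56 to -0.47 for EPHA6 and -1.05 to -0.27 for AHNAK. The value of -1.05 rests on 18 thoracic and 15 lumbar UMIs in sub-cluster 1. With thinning, AHNAK was found in 5.50% of cervical, 16.1% of thoracic and 5.11% of lumbar astrocyte-like nuclei, against at most 0.257% of oligodendrocyte-like nuclei, and unthinned in 27.3%, 54.8% and 22.8%. The potassium channel KCNH7 also had its highest class level in neuron-like nuclei. In astrocyte-like nuclei it was highest in lumbar ones, at 68.0, 22.7 and 182 CPM, with a log2 ratio of lumbar over cervical of 0.69 to 1.27 within sub-clusters. NRXN3, a presynaptic adhesion protein, was lowest there, at 1748, 2379 and 609 CPM, with -1.16 to -0.21 within them. SLC17A8, the vesicular glutamate transporter VGLUT3, was also lowest in lumbar nuclei at 12.6, 18.2 and 4.10 CPM. HOOK1, which links vesicles to microtubules and is highest in oligodendrocyte-like nuclei, was lowest in thoracic astrocyte-like nuclei at 44.6, 10.3 and 37.1 CPM, and NEFL stood at 18.3, 5.17 and 20.1 CPM. The summed level of the oligodendrocyte markers in astrocyte-like nuclei was 342, 390 and 255 CPM, and of the neuron markers 95.1, 85.1 and 87.6 CPM. OPC markers summed to 2072, 2627 and 1838 CPM there, highest in thoracic and lowest in lumbar nuclei. Their part in these differences was not tested.

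**Figure D3:**
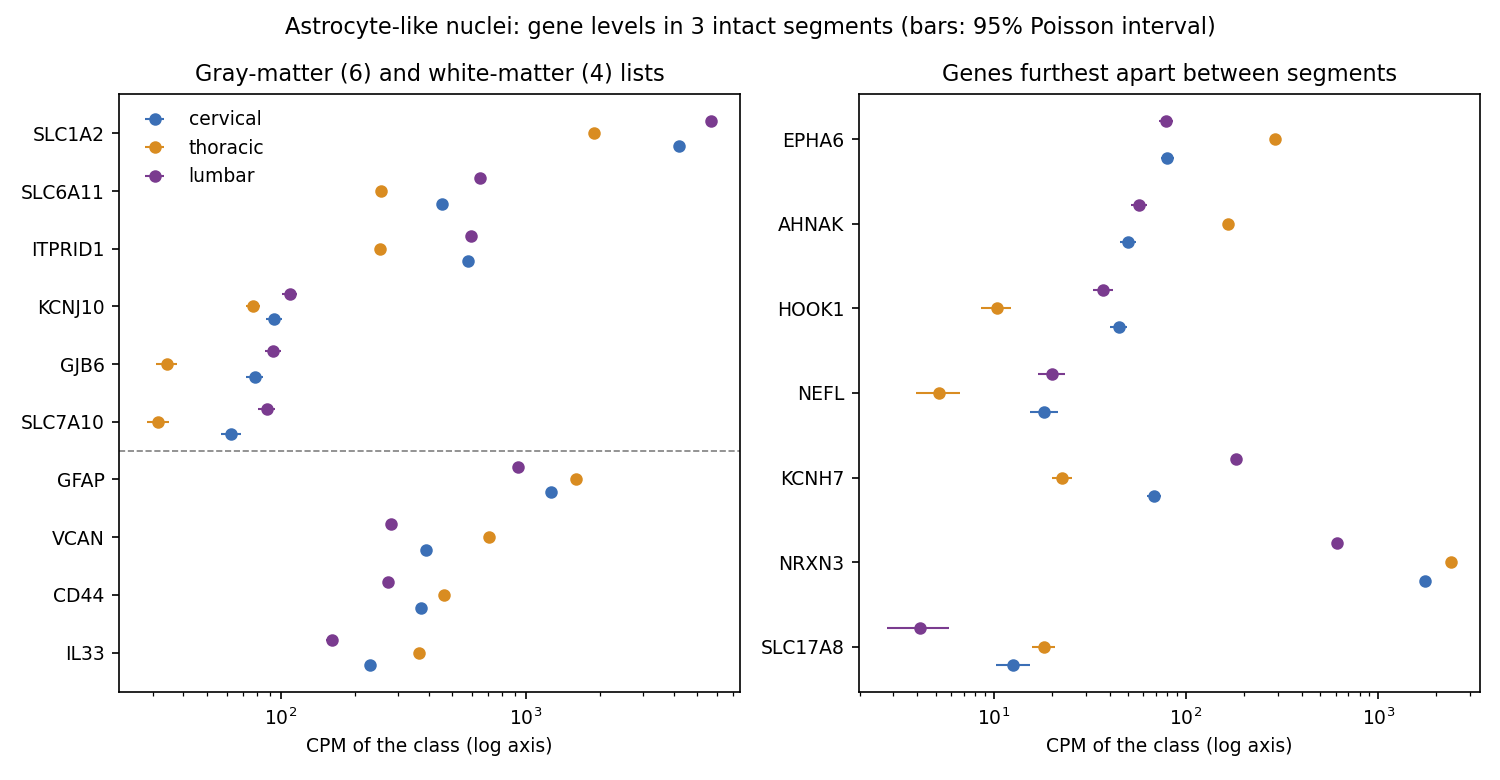
Levels of 6 gray-matter and 4 white-matter astrocyte genes and of 7 of the genes furthest apart in astrocyte-like nuclei of the 3 segments, in CPM on a log scale with exact Poisson intervals. SLC1A2 is lowest in thoracic nuclei (1899 CPM) and VCAN highest there (704 CPM).

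Microglia/macrophage-like nuclei (1461 cervical, 2376 thoracic and 2049 lumbar) differed in few genes, several of them immediate early genes, which cells switch on within minutes of a stimulus and which mostly encode transcription factors. Of 8162 genes tested, 19 (0.233%) were higher and 14 (0.172%) lower in lumbar than in cervical nuclei. Against thoracic nuclei, 55 (0.674%) were higher and 14 (0.172%) lower in lumbar ones, and 7 (0.0858%) were higher and 25 (0.306%) lower in thoracic than in cervical nuclei. With the sub-clusters led by another class kept in, the counts past 2-fold for lumbar against cervical, lumbar against thoracic and thoracic against cervical nuclei were 210, 135 and 120 in place of 33, 69 and 32. The orphan nuclear receptor NR4A3 was lowest in cervical nuclei, at 20.2 [16.9, 24.1] CPM, against 85.2 [79.7, 91.0] in thoracic and 173 [163, 183] in lumbar nuclei. The related NR4A1 stood at 28.2, 57.4 and 117 CPM and NR4A2 at 51.3, 110 and 140 CPM. The AP-1 subunits FOSB, at 13.1, 61.4 and 40.6 CPM, and FOS, at 46.4, 163 and 70.5 CPM, were instead highest in thoracic nuclei. EGR2, a zinc finger factor, was highest in lumbar nuclei at 25.8, 30.5 and 76.9 CPM. JUN went the other way, at 71.6, 56.5 and 36.2 CPM.

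Over the 11 immediate early genes tested in these nuclei, 5 were higher in lumbar than in cervical nuclei, where 0.233% of all tested genes were, and none lower, with a median log2 ratio of 0.59 against -0.02 over all tested genes. Between thoracic and cervical nuclei 4 were higher, where 0.0858% of all tested genes were, with a median of 0.82 against -0.02. Lumbar against thoracic nuclei gave 3 higher and 1 lower, beside 0.674% and 0.172% of all tested genes, with a median of -0.18 against -0.00. The genes differed in how many nuclei carried them. For NR4A3, 10 nuclei held 65.4% of the UMIs in cervical, 46.5% in thoracic and 36.1% in lumbar microglia/macrophage-like nuclei. For FOS they held 25.1%, 10.8% and 20.9%, for FOSB 34.1%, 19.0% and 26.7% and for EGR2 24.1%, 17.9% and 11.9%. With thinning, NR4A3 was found in 0.958% [0.525, 1.60] of cervical, 2.86% [2.23, 3.61] of thoracic and 5.56% [4.61, 6.65] of lumbar nuclei, against at most 0.0291% of oligodendrocyte-like nuclei, and unthinned in 2.74%, 4.71% and 7.96%. FOS was found in 3.63%, 8.84% and 4.44% and EGR2 in 2.19%, 2.36% and 6.49% of thinned nuclei. A sub-cluster led by NR4A3, NR4A1, NR4A2, EGR2 and FOSB held 269 of 1461 cervical, 330 of 2376 thoracic and 403 of 2049 lumbar nuclei. The clustering did not leave these genes out, so they could shape the sub-clusters in which they were compared. Within the 3 sub-clusters compared, the lumbar over cervical log2 ratio of NR4A3 ran from -1.22 to 3.14 and was above 0 in 2 of 3, while that of thoracic over cervical was above 0 in 3 of 3 for NR4A3, FOS and FOSB. The sub-cluster led by NR4A3 held 122, 836 and 1226 of its UMIs. The others held only 4, 11 and 0, and 1, 4 and 8, and FOSB had 3, 8 and 7 in the latter. The ratios of these genes there rest on counts near the floor of 3 UMIs.

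The same direction was not seen in astrocyte-like nuclei. Their 3 tested immediate early genes had a median of -0.86 for lumbar over cervical and -1.31 for thoracic over cervical. DUSP1, a phosphatase that ends kinase signalling, stood at 55.0, 12.5 and 29.9 CPM and JUN at 21.2, 7.96 and 10.7 CPM.

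Several signalling genes of microglia/macrophage-like nuclei also differed. PDGFB, a growth factor for mural cells and oligodendrocyte precursors, stood at 20.4, 21.04 and 51.2 CPM and was highest in lumbar nuclei within 3 of 3 sub-clusters. BTBD19 was highest there too, at 7.65, 10.7 and 27.1 CPM. RGS2, which shortens G protein signalling, was lowest in lumbar nuclei at 53.4, 50.4 and 22.4 CPM, as was the cadherin CDH6 at 24.4, 25.7 and 11.3 CPM. CD163 and MRC1, scavenger and mannose receptors typical of perivascular macrophages, stood at 521, 427 and 806 CPM and at 532, 464 and 738 CPM. A cluster led by MRC1 and CD163 held 449 cervical, 414 thoracic and 855 lumbar nuclei. The part of these unequal numbers in the 2 levels was not tested. The 4 genes tested of the perivascular macrophage list had a median of 0.54 for lumbar over thoracic, with none past 2-fold. Homeostatic microglia genes, 8 tested, had no member past 2-fold and medians of 0.06, 0.16 and -0.14 for lumbar over cervical, lumbar over thoracic and thoracic over cervical. Of 6 chemokines and cytokines tested, TNF at 72.4, 29.8 and 39.9 CPM was lower in thoracic than in cervical nuclei, where 0.306% of all tested genes were, IL1B stood at 206, 114 and 226 CPM and CXCL8 at 56.8, 94.96 and 66.9 CPM.

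**Figure D4:**
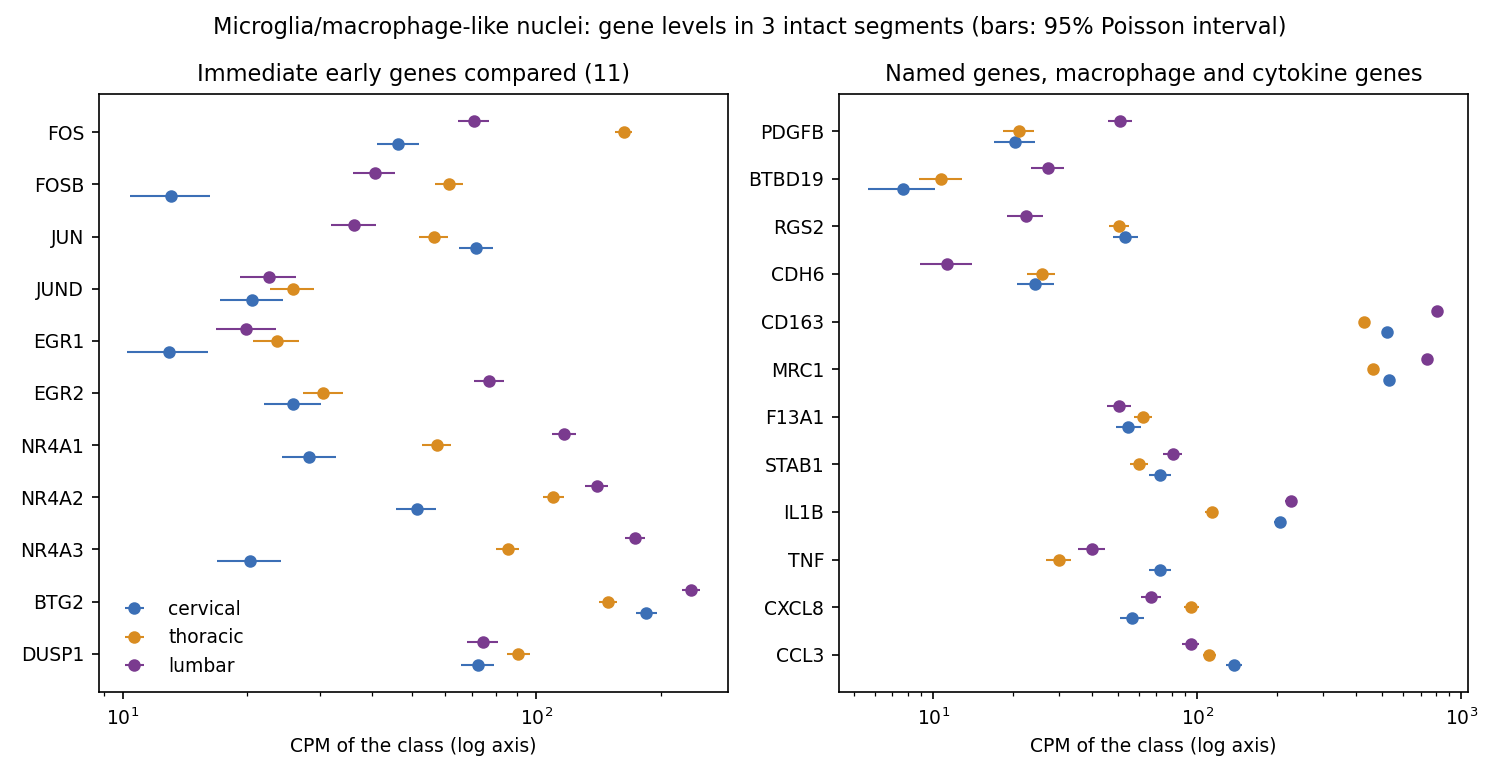
Levels of immediate early and named genes in microglia/macrophage-like nuclei of the 3 segments, in CPM on a log scale with exact Poisson intervals. NR4A3 stands at 20.2, 85.2 and 173 CPM in cervical, thoracic and lumbar nuclei, and FOS is highest in thoracic nuclei (163 CPM).

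Oligodendrocyte-like nuclei, the myelinating class, had the fewest genes past 2-fold at the clustering used, but at a clustering resolution of 2 the counts were 15, 51 and 10 for lumbar against cervical, lumbar against thoracic and thoracic against cervical, in place of 4, 16 and 13, and no longer the fewest of the classes in the first 2 of these. Of 7717 genes tested, 3 (0.0389%) were higher and 1 (0.013%) lower in lumbar than in cervical nuclei. For lumbar over thoracic the counts were 14 (0.181%) and 2 (0.0259%), and for thoracic over cervical 0 (0.0%) and 13 (0.168%). The 13 myelin genes tested had no member past 2-fold in any pair and medians of 0.09, 0.06 and -0.02 for lumbar over cervical, lumbar over thoracic and thoracic over cervical. In the whole libraries, 4 of the same genes were lower in lumbar than in thoracic cord, where 2.86% of all tested genes were, and 1 lower than in cervical cord, where 0.303% were. Cholesterol synthesis, which supplies the main lipid of myelin, stood at a summed 1204 CPM in cervical, 1194 in thoracic and 927 in lumbar oligodendrocyte-like nuclei. None of its 13 tested genes was past 2-fold, but their medians were -0.36 for lumbar over cervical and -0.37 for lumbar over thoracic, against -0.03 and -0.04 over all tested genes. HMGCS1, an early enzyme of the pathway, stood at 250, 244 and 172 CPM. The sterol enzyme gene MSMO1 stood at 98.1, 87.9 and 61.2 CPM. In microglia/macrophage-like nuclei the median of the 13 tested genes was 0.07 for lumbar over cervical and 0.02 for lumbar over thoracic. In OPC-like nuclei it was -0.19 and -0.50, with 1 gene at least 2-fold lower in lumbar than in thoracic nuclei, against 0.157% of all tested genes.

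OPC-like nuclei had 8295 genes tested, of which 10 (0.121%) were higher and 12 (0.145%) lower in lumbar than in cervical nuclei. Lumbar against thoracic nuclei gave 14 (0.169%) and 13 (0.157%), and thoracic against cervical nuclei 12 (0.145%) and 22 (0.265%). The share of higher genes for lumbar over cervical was 45.5%, and 64.7% when the median of gene ratios set the scale. For lumbar over thoracic, 14 of 27 genes past 2-fold were higher, and 19 of 21 with sub-clusters weighted equally. The homeobox gene PRRX1, a mesenchymal transcription factor also used in glial progenitors, was lowest in cervical nuclei, at 31.1 [26.4, 36.5] CPM against 86.6 [81.0, 92.5] in thoracic and 102 [92.7, 111] in lumbar nuclei. With thinning it was found in 2.72%, 7.09% and 8.13% of them, against at most 0.0582% of oligodendrocyte-like nuclei, and unthinned in 11.5%, 24.1% and 28.6%. CENPP, a centromere protein gene, stood at 9.01, 21.1 and 21.5 CPM, with 79.5%, 46.5% and 55.3% of its UMIs in 10 nuclei. A sub-cluster with MKI67, CENPP and TOP2A among its leading genes had 3 cervical, 18 thoracic and 12 lumbar nuclei. The part of these numbers in the CENPP levels was not tested. SHOC1, a meiotic gene, was highest in cervical nuclei at 17.4, 6.38 and 8.15 CPM. BFSP2, a lens filament gene, was highest in thoracic nuclei at 6.96, 17.8 and 8.15 CPM, but 10 nuclei held 73.5%, 58.6% and 79.5% of its UMIs. A sub-cluster that it led with IFI44L, of 15, 63 and 16 nuclei, held 154 of its 181 thoracic UMIs. With sub-clusters weighted equally its direction was reversed, but that setting left this sub-cluster out and kept 14.9% of the thoracic UMIs. The 9 identity genes of OPCs had no member past 2-fold in any pair and medians of 0.01, -0.02 and 0.07.

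Neuron-like nuclei, despite their unequal numbers, also differed in few genes. Of 9131 genes tested, 10 (0.11%) were higher and 4 (0.0438%) lower in lumbar than in cervical nuclei. For lumbar over thoracic the counts were 16 (0.175%) and 4 (0.0438%), and for thoracic over cervical 8 (0.0876%) and 14 (0.153%). For lumbar over cervical, 10 of 14 genes past 2-fold were higher, and 7 of 14 with every nucleus weighted the same. For lumbar over thoracic they were 16 of 20, and 30 of 44 when so weighted. With sub-clusters weighted equally, 10 of 10 and 19 of 19 were higher. NOS1, which makes nitric oxide and marks thoracic preganglionic neurons among others, stood at 19.4, 52.2 and 27.8 CPM. Of 8 cholinergic and motor genes tested it alone was past 2-fold. It was higher in thoracic than in cervical nuclei, where 0.0876% of all tested genes were. A sub-cluster led by NOS1, with SLC5A7 and the acetylcholine-synthesizing enzyme CHAT among its leading genes, had 3 cervical, 13 thoracic and 9 lumbar nuclei and held 125, 783 and 559 of the 878, 1344 and 2430 NOS1 UMIs. It was too small to be among the 14 sub-clusters compared, which kept 76.4%, 39.1% and 63.9% of them and in which the thoracic over cervical ratio was above 0 in 8. SLC5A7, the choline transporter, stood at 25.1, 21.3 and 14.1 CPM, and CHODL, a marker of fast motor neurons, at 12.5, 12.9 and 7.31 CPM. Dorsal horn genes, 9 tested, and genes of inhibitory identity, 4 tested, had no member past 2-fold, with lumbar over cervical medians of 0.05 and 0.26. DNAH8, an axonemal dynein chain, was highest in thoracic nuclei at 11.1, 23.7 and 11.3 CPM, and 10 nuclei held 64.7%, 63.9% and 34.8% of its UMIs. A sub-cluster that DNAH8 led had 18 of 1086 cervical, 20 of 700 thoracic and 47 of 2670 lumbar nuclei. The part of these numbers in its levels was not tested.

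Some neuronal differences came from a handful of nuclei. EOLA2 stood at 49.1 CPM in cervical, 5.59 in thoracic and 19.0 in lumbar neuron-like nuclei, but 10 nuclei held 89.5% of its cervical and 66.8% of its lumbar UMIs, with up to 418 and 600 UMIs in the highest nucleus, and a single sub-cluster of 23, 7 and 25 nuclei held 1981 of its 2218 cervical and 1122 of its 1664 lumbar UMIs. With sub-clusters weighted equally both of its directions were reversed, but that setting left this sub-cluster out and kept 8.93% of the cervical UMIs. With thinning it was found in 0.921%, 0.429% and 0.861% of neuron-like nuclei, and in 0.891%, 1.13% and 0.757% of oligodendrocyte-like nuclei. UBB, a ubiquitin gene, was lowest in thoracic nuclei at 16.9, 6.57 and 15.3 CPM.

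A few genes moved the same way in nearly every class. Of 7062 genes tested in at least 4 of the 5 major classes, 4 were higher in lumbar than in cervical nuclei in at least 4 classes, 6 were higher in lumbar than in thoracic nuclei, 1 was higher in thoracic than in cervical nuclei and 4 were lower there. None was lower in lumbar than in either other segment. HOXA9 was one of these, past 2-fold over cervical nuclei in both other segments. NEFM and NEFL were another kind, lowest in thoracic nuclei of each class. In neuron-like nuclei NEFM stood at 97.95, 43.2 and 90.2 CPM and NEFL at 55.9, 26.4 and 50.6 CPM, and the lumbar over thoracic ratio was above 0 in 14 of 14 neuron-like sub-clusters for each. The heavy chain NEFH stood at 44.6, 24.8 and 42.1 CPM. In microglia/macrophage-like nuclei, which are not known to make neurofilament, NEFM stood at 34.6, 6.41 and 33.4 CPM and NEFL at 25.03, 7.17 and 24.3 CPM. In OPC-like nuclei NEFM stood at 22.7, 6.28 and 25.9 CPM and NEFL at 14.5, 5.01 and 20.7 CPM. The summed neuron markers in microglia/macrophage-like nuclei were 53.6, 24.3 and 73.3 CPM, lowest in the thoracic library like the UMI share of neuron-like nuclei, while in neuron-like nuclei they were 3194, 3376 and 3393 CPM. In oligodendrocyte-like nuclei the same markers summed to 42.1, 37.2 and 53.8 CPM, also lowest in the thoracic library. In OPC-like nuclei they summed to 471, 591 and 563 CPM, most of it SYT1 at 337, 469 and 407 CPM, while 5 of the 7 markers were lowest in the thoracic library, among them SNAP25 at 117, 104 and 141 CPM. The part of RNA from other cells in the glial values was not tested.

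Mitochondrial transcripts were highest in lumbar cord in each class. The 13 mitochondrial genes summed to 45.4 CPM in cervical, 47.4 in thoracic and 102 in lumbar cord, and to 24.3, 22.9 and 82.1 CPM in neuron-like, 48.1, 38.3 and 92.8 in oligodendrocyte-like and 113, 88.9 and 201 in microglia/macrophage-like nuclei. In astrocyte-like nuclei the sum was 62.5, 58.6 and 145 CPM, and in OPC-like nuclei 68.0, 61.1 and 150 CPM. COX3, a subunit of cytochrome oxidase, stood at 7.43, 8.36 and 27.5 CPM in the whole libraries and ND2, a subunit of complex I, at 27.7, 28.4 and 54.6 CPM. Mitochondrial RNA lies outside the nucleus. Hemoglobin genes had another order, with a sum of 3.20, 25.1 and 2.49 CPM over 5 genes, highest in the thoracic library. Ribosomal protein genes, 51 tested in neuron-like nuclei, had a thoracic over cervical median of -0.34, and between -0.15 and -0.28 in the other 4 classes, with none past 2-fold.

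ADORA2B, which encodes a low-affinity adenosine receptor, was also highest in the lumbar library in each class. Beside it, 2 genes without a symbol were at least 2-fold higher in lumbar than in thoracic nuclei of all 5 classes: ENSMMUG00000060590, at 45.1, 31.7 and 152 CPM in neuron-like nuclei, and ENSMMUG00000065362, at 273, 185 and 606 CPM there. ADORA2B stood at 34.6, 27.4 and 113 CPM in neuron-like, 56.0, 44.5 and 132 in oligodendrocyte-like and 77.0, 72.5 and 206 in OPC-like nuclei. Its lumbar over cervical log2 ratio was 1.28 to 2.41 within 14 neuron-like sub-clusters. The gene lies on chr16:16421779-16452743 of Mmul_10, on the minus strand, with 2 exons. An intronic span at chr16:16425034-16427051, 2018 bases that overlap no exon, held 747 windows of 25 bases that match the mitochondrial genome. The longest unbroken match, 122 bases at chr16:16425302-16425423, lies in the complex I gene ND5 on the same strand. It is shown as the longest of 29 unbroken runs in the span, so it is not all that the gene shares with the mitochondrial genome. The stretch is printed with 20 bases on either side, chr16:16425282-16425443, 5′ to 3′ on the minus strand from the reference genome, with the match in capitals.
ADORA2B intron: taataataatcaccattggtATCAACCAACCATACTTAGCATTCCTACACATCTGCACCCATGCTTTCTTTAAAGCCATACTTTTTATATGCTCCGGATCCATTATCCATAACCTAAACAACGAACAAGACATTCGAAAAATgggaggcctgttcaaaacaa
The counts do not tell which bases were read, so the share of ADORA2B UMIs from this stretch was not tested. Of 8787 genes searched, 9 (0.102%) held at least 100 such windows, with a median lumbar over cervical log2 ratio of 0.33. ADORA2B itself and DNAH11 were the 2 of them past 2-fold, both higher in lumbar cord, where 0.136% of all tested genes were. ADORA2B was named here for that difference, so the count of 2 cannot be read against this share. DNAH11 was a leading gene of the ependymal-like cluster, which held 62 cervical, 109 thoracic and 320 lumbar nuclei. The part of these numbers in its ratio was not tested. The genes with more windows than ADORA2B were ASIC2, BMT2, CNN3, ZFPM2 and TMTC2. Their ratios were 0.24, 0.33, -0.38, 0.35 and -0.67. Of the 29 named genes searched, ADORA2B alone held that many.

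**Figure D5:**
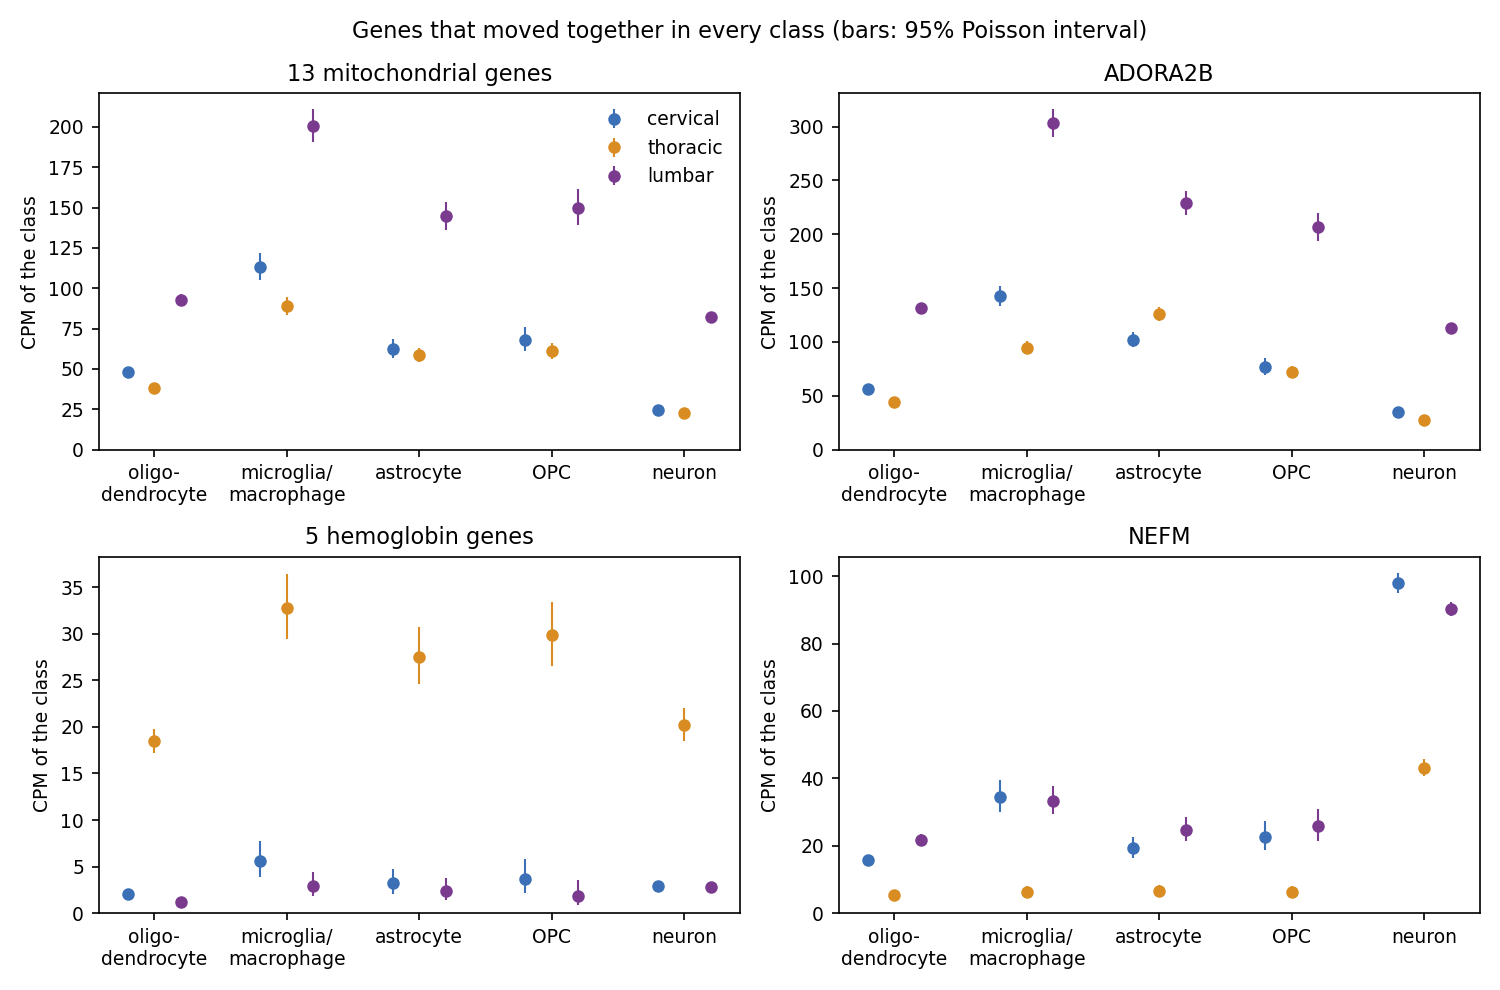
Levels in CPM on a linear scale, by class and segment, of 13 mitochondrial genes summed, ADORA2B, 5 hemoglobin genes summed and NEFM, with exact Poisson intervals. ADORA2B and the mitochondrial sum are highest in lumbar nuclei of each class (113 and 82.1 CPM in neuron-like nuclei), hemoglobin is highest and NEFM lowest in thoracic ones (43.2 CPM for NEFM in neuron-like nuclei).

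Most pathways described few differences between segments once class was held fixed. Of 76 combinations of a gene list and a class with at least 3 genes tested, HOX lists aside, the median log2 ratio lay within 0.5 of 0 in 73 for lumbar over cervical, 72 for lumbar over thoracic and 70 for thoracic over cervical. Heat shock genes had medians from -0.40 to -0.13 over the 5 classes for lumbar over cervical, with none past 2-fold. Genes of the interferon response, 6 tested in microglia/macrophage-like nuclei, had medians of -0.10, 0.02 and -0.19. Glucocorticoid response genes had medians from -0.00 to 0.15 for lumbar over cervical over the 5 classes, and the HOX cofactors of the PBX and MEIS families from -0.12 to 0.06.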

How the data were processed

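The authors sequenced nuclei with a droplet 3′ kit and made the deposited UMI counts per gene and barcode with Cell Ranger 6.0.0 against Mmul_10, as per the labels and the study's methods. From these counts, 35432 identifiers were joined into 28966 gene names, with 959 identifiers named from a RefSeq table and 10923 left as identifiers. Nuclei with at least 1000 UMIs, more than 500 genes, under 10% mitochondrial and under 5% hemoglobin UMIs were kept. The 5% of each library with the highest Scrublet score were removed as doublets, 1633 in all.

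The counts were scaled to 10000 per nucleus and logged, and clustered in scanpy 1.11.5 (2000 variable genes, 30 components, 20 neighbours, Leiden resolution 1, no integration, no batch correction). Of 30 clusters, 28 were named from marker genes, so classes are rebuilt and may differ from the study's. UMIs were then summed per class and library. Genes with a mean CPM of at least 10 and at least 100 UMIs were compared as the log2 ratio of CPM with 1 added. Beside the genes of the lists, those named were, for the whole library and each class, up to 3 genes highest and 2 lowest in a segment by at least 2-fold against both others, with a symbol, at least 50 UMIs on the higher side and, in a class, at least 25% of the level of the highest class. HOX, mitochondrial and hemoglobin genes were left out of that rule. The expression comparison and the sequence match were tested on simulated data. The segments, lists and genes were chosen with earlier results of these data known. Alternatives covered doublets, clustering, weighting, depth, scale, filter and pseudocount, and 1, keeping the sub-clusters led by another class, was chosen after seeing the data. The analysis ran in Python 3.11.15 with numpy 2.4.6, scipy 1.17.1 and pandas 2.3.3. Some genes are not reported here.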

Additional observations from a re-analysis of the deposited data

Results flagged for a closer look

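The medians of one gene list had opposite signs in 2 classes. The median log2 ratio of the immediate early genes was 0.59 in microglia/macrophage-like nuclei and -0.86 in astrocyte-like nuclei for lumbar over cervical, and 0.82 and -1.31 for thoracic over cervical. For lumbar over cervical, 5 of the first class's genes were past 2-fold, all higher, where 0.233% of all tested genes were, and none of the second's. For thoracic over cervical, 4 were higher in the first class, where 0.0858% of all tested genes were. In the second class 2 were lower, where 0.975% of all tested genes were. In OPC-like nuclei, with 4 genes tested, the medians were -0.55 and -0.06. The medians rest on 11 genes in the first class and 3 in the second, and 1 library stands for each segment, so the difference between classes was not tested.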

How the results depend on the processing

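Counts of genes past 2-fold are given in the order lumbar against cervical, lumbar against thoracic and thoracic against cervical. As reported they were 42, 869 and 109 in whole libraries, 4, 16 and 13 in oligodendrocyte-like nuclei, 33, 69 and 32 in microglia/macrophage-like nuclei, 38, 322 and 111 in astrocyte-like nuclei, 22, 27 and 34 in OPC-like nuclei, 14, 20 and 22 in neuron-like nuclei. For the settings below, the classes not named stayed within 1.5 times these, and where a class is named all 3 counts are given. Without removal of doublets the counts were 10, 17 and 14 in oligodendrocyte-like nuclei, 21, 52 and 40 in microglia/macrophage-like nuclei. With each library clustered alone they were 9, 18 and 28 in oligodendrocyte-like nuclei, 52, 680 and 342 in astrocyte-like nuclei, 38, 46 and 36 in OPC-like nuclei. At a clustering resolution of 2 they were 15, 51 and 10 in oligodendrocyte-like nuclei. With the sub-clusters led by another class kept, an alternative chosen after seeing the data, they were 210, 135 and 120 in microglia/macrophage-like nuclei, 146, 671 and 409 in astrocyte-like nuclei, 45, 51 and 32 in OPC-like nuclei, 23, 34 and 21 in neuron-like nuclei. Thinning each nucleus to 1000 UMIs gave 116, 414 and 82 in whole libraries, 7, 33 and 22 in oligodendrocyte-like nuclei, 92, 146 and 89 in microglia/macrophage-like nuclei, 288, 517 and 335 in astrocyte-like nuclei, 413, 274 and 288 in OPC-like nuclei, 99, 258 and 336 in neuron-like nuclei. Weighting every nucleus the same gave 103, 413 and 61 in whole libraries, 14, 44 and 33 in neuron-like nuclei. Without a filter on level the counts came to 73, 1228 and 170 in whole libraries, 11, 57 and 48 in oligodendrocyte-like nuclei, 170, 317 and 200 in microglia/macrophage-like nuclei, 178, 606 and 312 in astrocyte-like nuclei, 339, 220 and 264 in OPC-like nuclei, 43, 59 and 85 in neuron-like nuclei. A mean CPM of at least 50 left 16, 408 and 37 in whole libraries, 3, 5 and 3 in oligodendrocyte-like nuclei, 6, 16 and 5 in microglia/macrophage-like nuclei, 10, 123 and 40 in astrocyte-like nuclei, 6, 7 and 4 in OPC-like nuclei, 5, 6 and 4 in neuron-like nuclei. With 10 added to CPM in place of 1, there were 14, 428 and 33 in whole libraries, 3, 4 and 1 in oligodendrocyte-like nuclei, 14, 16 and 8 in microglia/macrophage-like nuclei, 10, 143 and 43 in astrocyte-like nuclei, 6, 9 and 5 in OPC-like nuclei, 11, 7 and 8 in neuron-like nuclei. Leaving out genes under 25% of their highest class gave 3, 7 and 8 in oligodendrocyte-like nuclei, 20, 30 and 17 in microglia/macrophage-like nuclei, 19, 206 and 70 in astrocyte-like nuclei, 14, 18 and 27 in OPC-like nuclei, 13, 13 and 20 in neuron-like nuclei. Weighting sub-clusters equally gave 24, 35 and 37 in astrocyte-like nuclei, 10, 19 and 14 in neuron-like nuclei. The 1000 UMI and 500 gene limits alone, and a scale set by the median of gene ratios, left all 18 counts within 1.5 times.

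Of 400 alternative values for the 41 named results, 336 stayed past 2-fold and 3 were reversed, all with sub-clusters weighted equally, a setting that also left out sub-clusters with under 20 nuclei in any segment and so kept 85.7% of neuron-like and 95.4% of OPC-like nuclei: BFSP2 as highest in thoracic OPC-like nuclei (-0.47), and EOLA2 in neuron-like nuclei as highest in cervical (-0.24) and as lowest in thoracic nuclei (0.067), in log2 units. The sub-clusters it kept held 14.9% of the thoracic BFSP2 UMIs and 8.93% of the cervical EOLA2 UMIs. The fall from the looser to the stricter filter on level follows from the genes tested. With thinning, the counts of single classes rest on few UMIs per gene, so counting error alone can raise them. How much of their rise it accounts for was not tested. Why the remaining counts moved was not tested. With 1 library per segment no replicate could be left out and no spread between animals or preparations can be had, and shallow classes, such as microglia/macrophage-like nuclei, limit what was detectable for genes under 10 CPM. No paired analysis was possible because each segment has 1 library and the result comes from no test.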

Other observations

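Classes with few nuclei were not compared gene by gene, apart from HOXA9 in ependymal-like nuclei (6, 71 and 155 UMIs). T cell-like nuclei numbered 19 in cervical, 122 in thoracic and 17 in lumbar cord, 0.207% [0.124, 0.322], 1.11% [0.922, 1.32] and 0.157% [0.0914, 0.251] of the nuclei kept. Ependymal-like nuclei numbered 62, 109 and 320, 0.674% [0.517, 0.863], 0.991% [0.814, 1.19] and 2.95% [2.64, 3.29]. The fibroblast markers named 25, 9 and 8 nuclei, the endothelial markers 37, 39 and 40. The part that the dissection had in these shares was not tested.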
